A study of Mus musculus with 4 samples.

Results

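The 10 genes described here, *Apoe*, *Apoc1*, *Abca1*, *Abcg1*, *Plin2*, *Soat1*, *Ch25h*, *Msr1*, *Fabp5* and *Nceh1*, take part in the uptake, storage and export of cholesterol by macrophages and glia. They were chosen by name from the 33981 genes in the deposited tables, and each symbol matched 1 Ensembl gene. Poly(A) RNA was sequenced from the brains of male C57BL/6J mice aged 3 to 5 months, in 4 groups with 6 libraries each. The labels give 1 sample for each group and the tables number 6 libraries, so each library was treated as 1 mouse, and *P* values measure the spread between these libraries.

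Saline vehicle was given to normotensive (NT) mice, and angiotensin II, a peptide that raises blood pressure, to hypertensive (HT) mice, the latter in a daily amount of 0.28 mg per kg, both for 28 days. On day 7 the mice underwent sham surgery or a photothrombotic stroke of the prefrontal cortex, in which light activates a dye in the vessels and clots form. The groups are written as NT or HT with Sham or Stroke, and all mice were perfused with phosphate-buffered saline and culled on day 28. RNA came from a coronal brain section holding the prefrontal cortex, so the tissue is a mixture of cell types, and for every gene below a change in the number of cells of a type and a change in RNA per cell cannot be told apart.

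Cells that clear dying tissue and myelin take up large amounts of cholesterol, part of which they esterify and keep in lipid droplets, and a macrophage filled with such droplets is called a foam cell. Free cholesterol leaves through ABC transporters of the plasma membrane and is loaded on lipoprotein particles, which in brain are built mainly on the apolipoprotein E that astrocytes and activated microglia secrete. Oxysterols, which are oxidised forms of cholesterol, activate the liver X receptors (LXR), and these nuclear receptors turn on the transporter and apolipoprotein genes.

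Promoter sequence is shown for 3 genes because *Abca1* and *Plin2* stood among the largest differences after stroke and moved together from mouse to mouse, whereas *Nceh1* differed in the opposite direction. RefSeq promoters on GRCm38.p6 were available for 6 of the 10 genes and were not used here for *Apoc1*, *Abcg1*, *Msr1* and *Fabp5*. Each line holds the 150 bases that end directly before the RefSeq transcription start, on the coding strand. Capitals mark the E-box CACGTG in *Nceh1* and, from left to right in *Abca1*, the same E-box, a pair of LXR half-sites on the reverse strand and a TATA box (TATAAA). The stretch of *Plin2* holds none of the letters searched.
Nceh1 chr3:27182854-27183003, plus strand: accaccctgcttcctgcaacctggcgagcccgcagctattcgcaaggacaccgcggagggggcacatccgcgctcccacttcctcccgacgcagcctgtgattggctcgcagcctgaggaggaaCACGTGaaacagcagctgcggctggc
Abca1 chr4:53159896-53160045, minus strand: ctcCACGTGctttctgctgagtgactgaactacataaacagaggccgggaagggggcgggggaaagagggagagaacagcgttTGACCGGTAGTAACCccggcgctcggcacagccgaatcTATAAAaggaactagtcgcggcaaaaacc
Plin2 chr4:86670060-86670209, minus strand: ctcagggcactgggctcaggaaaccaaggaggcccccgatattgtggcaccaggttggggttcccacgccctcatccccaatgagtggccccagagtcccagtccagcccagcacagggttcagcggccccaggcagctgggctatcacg

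The 250 bases before each start were searched on both strands for 5 motifs, and no searched motif overlapped another in these 3 genes. The LXR pair was written as a pair of GGTNA with 5 bases between, which are half-sites spaced by 4, and it was found in *Abca1* from -67 to -53 relative to the start and in none of the other 5 genes with an entry. Of 32851 mouse promoters of that length, 0.621% hold this pair. The E-box lay at -26 to -21 in *Nceh1* and at -147 to -142 in *Abca1*, and 6.02% of promoters hold it. TATAAA was present in *Abca1*, *Apoe* and *Ch25h* and in 12.4% of promoters, the half-site AGGTCA in *Plin2*, farther upstream than the stretch shown, and in 14.0%, and the cyclic AMP response element TGACGTCA in *Ch25h* at -61 to -54 and in 1.55%. The *Apoe* window, which starts at 19698572 on chromosome 7, lies inside the bounds of the *Apoe* gene given below. Its matches, and its lack of the LXR pair, thus describe bases before a RefSeq start within that gene. All these matches are descriptions of letters and not of binding.

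Several libraries stood apart from their labelled groups. Whether their labels or the size of their lesions differ from the rest of the group was not tested, and this bears on every HT value below. *Gfap*, the intermediate filament of astrocytes, was 596 to 1059 CPM (counts scaled to library size) in NT + Stroke and 146 to 183 CPM in NT + Sham. The libraries labelled HT + Stroke mice 1 and 6 had 249 and 231 CPM, against 920 to 1346 CPM in the other 4 mice of the group, and the library labelled HT + Sham mouse 6 had 550 CPM, against 163 to 242 CPM in the other 5. *Lyz2*, the lysozyme of macrophages and activated microglia, followed the same order, with 25.5 and 34.4 CPM in HT + Stroke mice 1 and 6 against 143 to 706 CPM in the rest of that group, and 164 CPM in HT + Sham mouse 6 against 13 to 18.5 CPM. HT + Sham mouse 6 also differed in the regions it held, with summed markers of olfactory bulb at 1067 CPM against 309 to 600 CPM in the other 5, of striatum at 355 CPM against 608 to 1107 CPM, and of cortex at 383 CPM against 512 to 578 CPM. In HT + Stroke mice 1 and 6 the striatal sums were 2283 and 2307 CPM, above every sham mouse (highest 1645 CPM). Their olfactory bulb sums were 151.5 and 205.9 CPM, below every sham mouse (lowest 210 CPM). Both sums lay within the range of the other 4 HT + Stroke mice. Leaving out HT + Stroke mice 1 and 6 and HT + Sham mouse 6 was decided after their values were seen, so differences without them are larger in part by that choice.

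After stroke with vehicle, the apolipoproteins, *Abca1*, *Plin2* and *Ch25h* rose by 2.5- to 8.26-fold, *Abcg1* and *Soat1* rose by less, and *Nceh1* fell. In NT + Stroke vs NT + Sham, 9 of the 10 genes passed the filter on low counts, 7 of them rose and 1 fell at an adjusted *P* under 0.05 (edgeR quasi-likelihood test). Of all 16835 genes tested, 14.4% rose and 11.5% fell. Ranges did not overlap between the groups for 6 genes that were higher (*Apoe*, *Apoc1*, *Abca1*, *Abcg1*, *Plin2* and *Soat1*), and for *Nceh1*, which was lower, whereas over all genes tested 7.78% were higher and 5.74% lower without overlap. *Ch25h* was among the 7, and it passed the filter here but not in HT + Sham vs NT + Sham, so its entry rested on the stroke libraries where it is high. The median log2 fold change over the 9 genes was 1.32, against -0.01 over all genes tested, and it was 0.57 over the 7 genes that no library held under 10 counts, 0.60 with limma on log2(FPKM + 1) and 0.86 with the region scores as covariates described below.

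**Figure D1:**
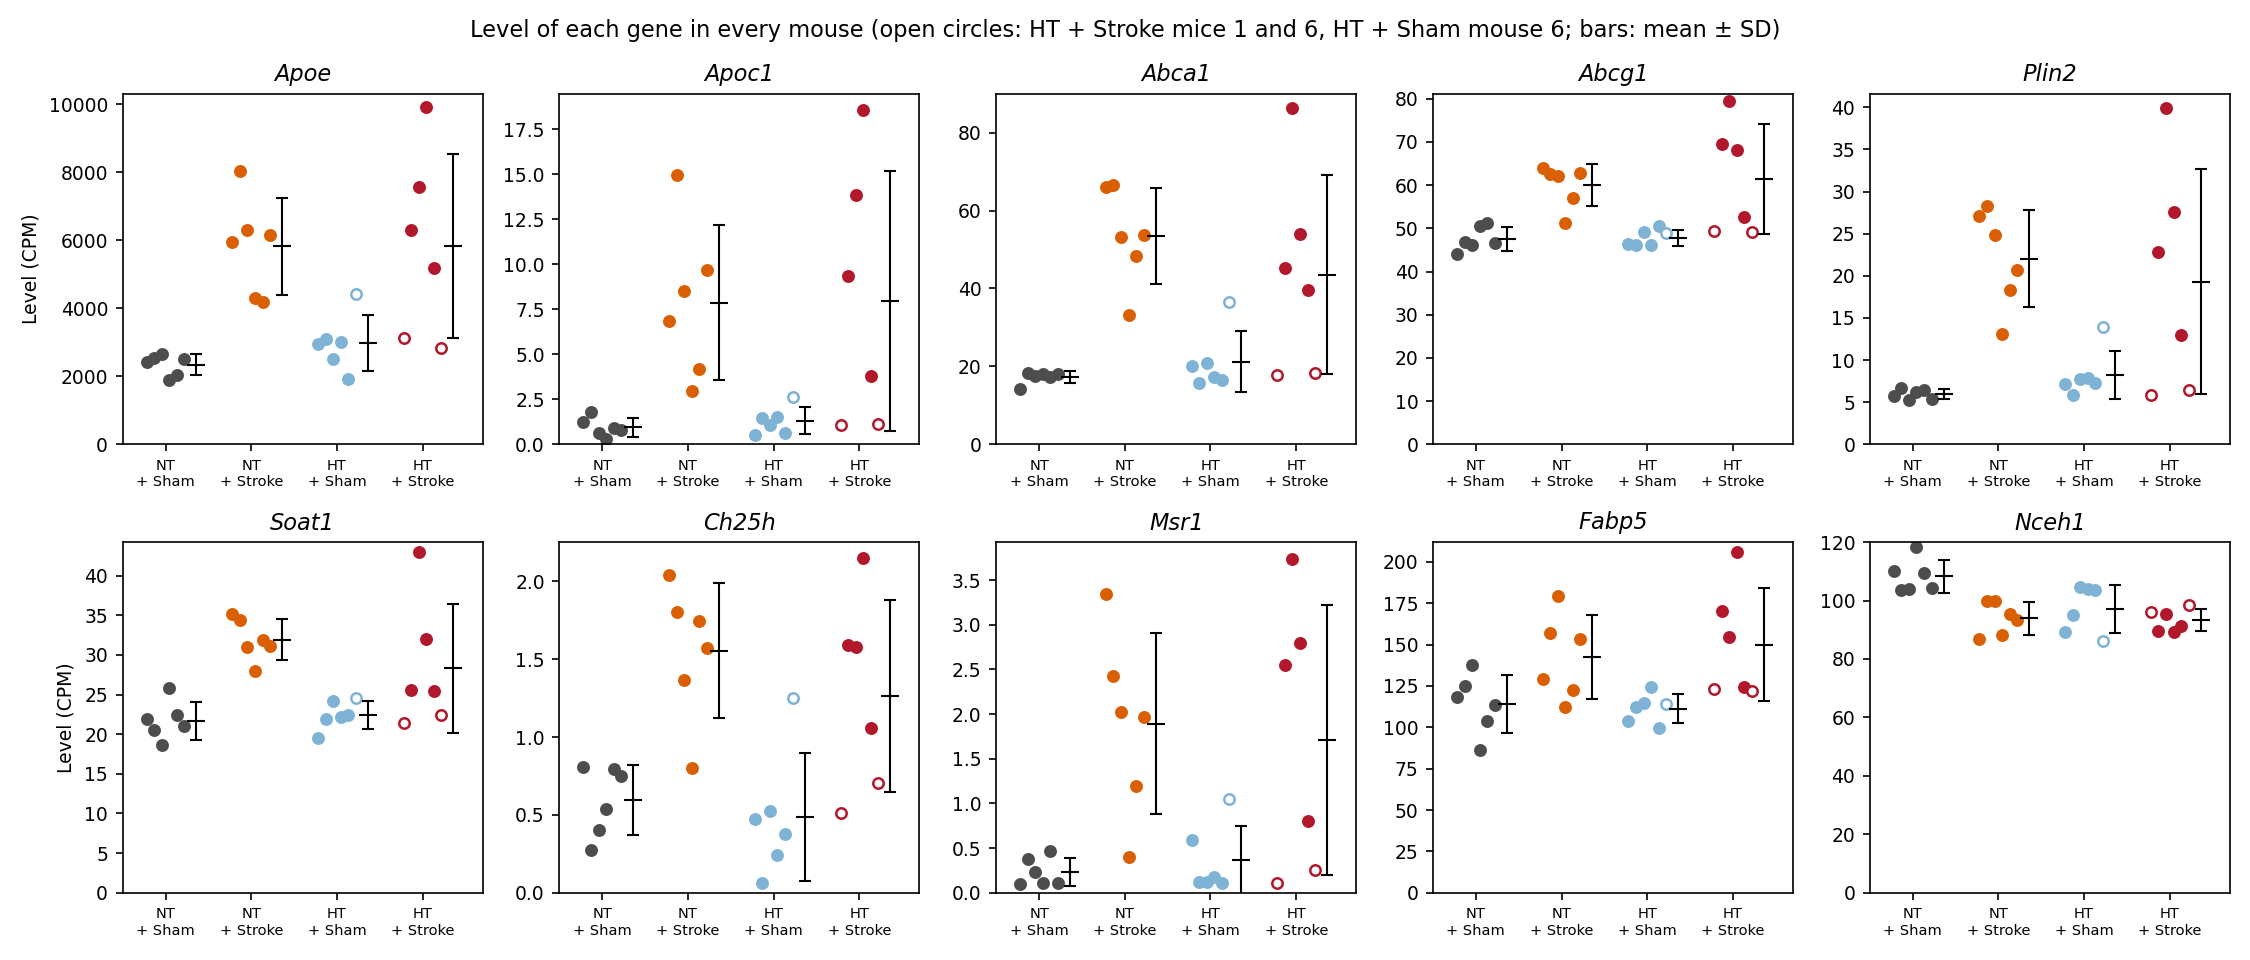
Level of each of the 10 genes in CPM (vertical axes from 0) in every mouse of the 4 groups, with bars for the mean ± SD of 6 mice. Open circles are the libraries labelled HT + Stroke mice 1 and 6, which lie at or near the sham levels for *Abca1* (17.9 and 18.3 CPM), and HT + Sham mouse 6, which lies above its group for *Abca1* (36.65 CPM) and *Plin2* (13.89 CPM).

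*Apoe* encodes the main lipoprotein component of brain (chromosome 7:19696109-19699188, minus strand, protein coding). Its level was 1887 CPM in the lowest, 2467 CPM in the median and 2660 CPM in the highest NT + Sham mouse, and 4179, 6056 and 8026 CPM in NT + Stroke. Every NT + Stroke mouse lay above every NT + Sham mouse, and the means were 2340 ± 308 and 5820 ± 1432 CPM (SD, n = 6 each). The log2 fold change was 1.32 (SE 0.150, edgeR adjusted *P* = 2.54e-05), a 2.5-fold rise.

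*Apoc1* lies downstream of *Apoe* on the same strand (chromosome 7:19689481-19692660) and encodes a small apolipoprotein that exchanges between particles. It was 0.269, 0.845 and 1.80 CPM in the lowest, median and highest NT + Sham mouse and 2.97, 7.70 and 15 CPM in NT + Stroke. The ranges did not meet, and the counts behind them were 5 to 33 reads in NT + Sham and 74 to 247 reads in NT + Stroke. The log2 fold change was 3.05 (SE 0.452, edgeR adjusted *P* = 0.000325), the largest of the 9 genes tested. As a ratio of FPKM, which is per length, *Apoc1* stood at 0.00114 ± 0.000591 of *Apoe* in NT + Sham and at 0.00366 ± 0.00121 in NT + Stroke (SD, n = 6 each), with ranges of 0.000409 to 0.00205 and 0.00199 to 0.00537 that overlapped slightly.

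The neighbour *Apoc4*, an apolipoprotein gene of the same cluster (chromosome 7:19678083-19681479, minus strand), had 0 or 1 count in each NT + Sham library and 10 to 59 counts in NT + Stroke. Against a floor of 3 counts in each library it was at least 10.4-fold higher in NT + Stroke and at least 8.95-fold higher in HT + Stroke than in NT + Sham (12.5-fold without HT + Stroke mice 1 and 6), a bound that covers counting error only. *Apoc4* had 0 counts in 5 of 6 HT + Sham libraries and 9 counts in the other one.

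*Abca1* encodes the transporter that loads cholesterol on lipid-poor apolipoprotein (chromosome 4:53030787-53159895, minus strand). Its levels ran from 14.2 CPM over a median of 17.8 CPM to 18.2 CPM in NT + Sham, and from 33.2 CPM over 53.5 CPM to 66.5 CPM in NT + Stroke. The lowest stroke mouse, NT + Stroke mouse 4, was thus well above the highest sham mouse. *Abca1* rose by 1.64 on the log2 scale (SE 0.141, edgeR adjusted *P* = 1.71e-06).

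*Abcg1* encodes the half-transporter that passes sterol to formed particles (chromosome 17:31057698-31115777, plus strand). It was 44.1, 46.8 and 51.31 CPM in the lowest, median and highest NT + Sham mouse and 51.33, 62.3 and 63.9 CPM in NT + Stroke. The ranges touched without overlap, since NT + Stroke mouse 4 was level with the highest sham mouse to the first decimal. *Abcg1* rose by 0.34 on the log2 scale (SE 0.0630, edgeR adjusted *P* = 0.000575). With striatal and olfactory bulb scores as covariates, an alternative chosen after the data were seen, the change was 0.33 with an adjusted *P* of 0.106. The ratio of *Abca1* to *Abcg1* in FPKM was 0.142 ± 0.0112 in NT + Sham and 0.347 ± 0.0591 in NT + Stroke, with ranges of 0.127 to 0.153 and 0.254 to 0.417.

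*Plin2* encodes perilipin 2, a coat protein of lipid droplets that rises with neutral lipid in the cell (chromosome 4:86648386-86670060, minus strand). It was 5.2, 5.99 and 6.70 CPM in the lowest, median and highest NT + Sham mouse and 13.2, 22.8 and 28.2 CPM in NT + Stroke. No stroke mouse was near the sham range. *Plin2* rose by 1.89 on the log2 scale (SE 0.160, edgeR adjusted *P* = 5.31e-07), or 3.71-fold.

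*Soat1* encodes the enzyme that esterifies cholesterol for storage (chromosome 1:156424525-156474331, minus strand), and *Nceh1* encodes a hydrolase of cholesteryl ester (chromosome 3:27182965-27284608, plus strand). *Soat1* was 18.6, 21.5 and 25.8 CPM in the lowest, median and highest NT + Sham mouse and 28.0, 31.5 and 35.2 CPM in NT + Stroke, a log2 fold change of 0.56 (SE 0.0790, edgeR adjusted *P* = 4.06e-05). *Nceh1* was 103.7, 106.9 and 118.4 CPM in NT + Sham and 86.9, 94.3 and 100 CPM in NT + Stroke, and it fell by 0.20 on the log2 scale (SE 0.0560, edgeR adjusted *P* = 0.0119). The enzymes thus moved in opposite directions with no overlap in either, and their FPKM ratio, *Soat1* to *Nceh1*, was 0.107 ± 0.00672 in NT + Sham and 0.183 ± 0.0181 in NT + Stroke. The call for *Nceh1* depended on the scaling, since it was lost when libraries were scaled by library size only and with the region scores as covariates (adjusted *P* = 0.78).

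**Figure D2:**
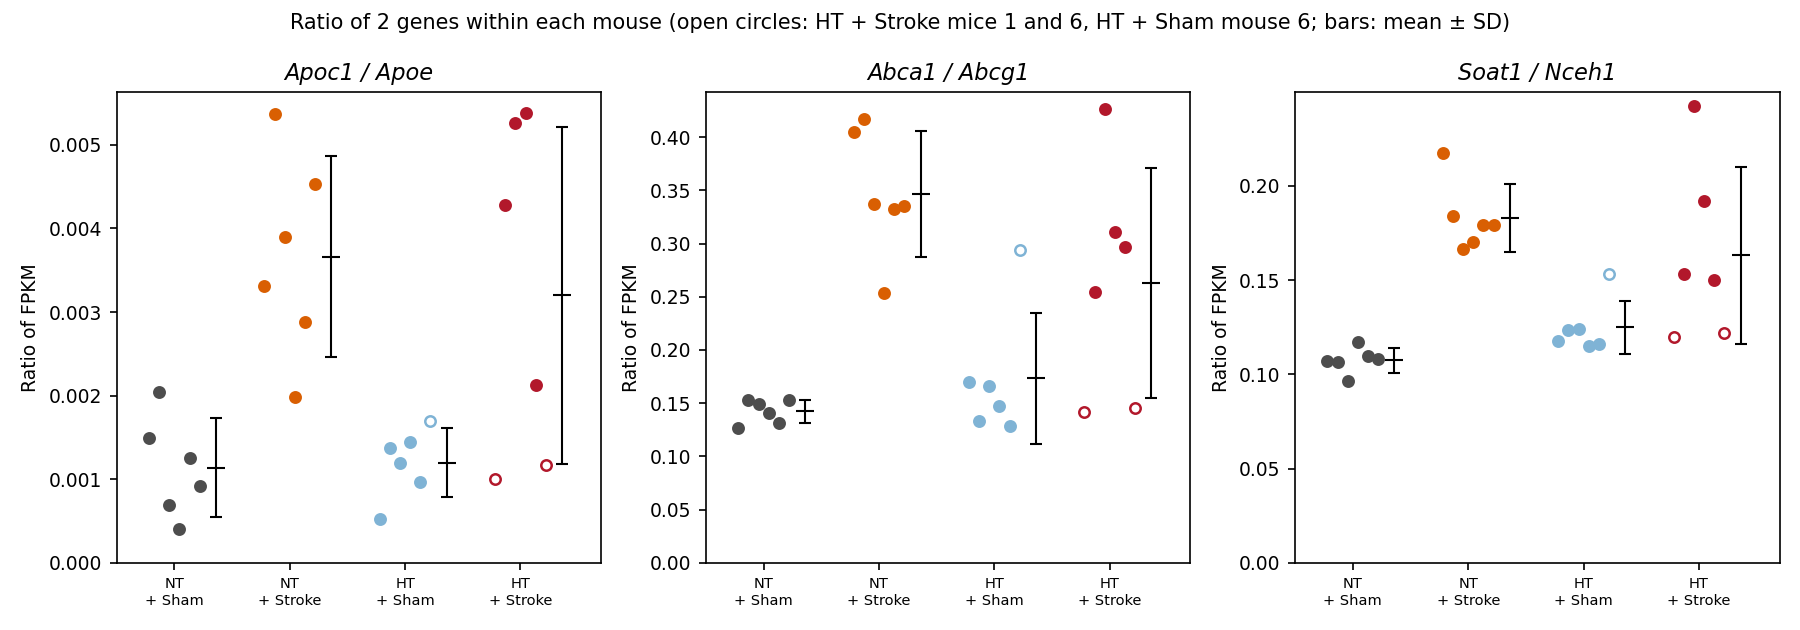
Ratio of FPKM within each mouse for *Apoc1* to *Apoe*, *Abca1* to *Abcg1* and *Soat1* to *Nceh1* (vertical axes from 0), with bars for the mean ± SD of 6 mice and open circles for HT + Stroke mice 1 and 6 and HT + Sham mouse 6. The *Soat1* to *Nceh1* ratio lay between 0.0961 and 0.117 in NT + Sham and between 0.167 and 0.217 in NT + Stroke.

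*Ch25h* encodes cholesterol 25-hydroxylase, which makes the oxysterol 25-hydroxycholesterol (chromosome 19:34473786-34475135, minus strand). It was 0.272, 0.642 and 0.807 CPM in the lowest, median and highest NT + Sham mouse and 0.802, 1.66 and 2.04 CPM in NT + Stroke, so that 5 of 6 stroke mice were above every sham mouse. The log2 fold change was 1.36 (SE 0.288, edgeR adjusted *P* = 0.00174), and 0.86 with an adjusted *P* of 0.476 with the region scores as covariates. The counts were low, 5 to 17 reads in NT + Sham and 20 to 40 reads in NT + Stroke. The long noncoding RNA gene *Gm26902* overlaps *Ch25h* on the opposite strand with 7 to 33 counts per library, and since the use of strand in the counting is not given in the sources used here, reads of both genes cannot be told apart.

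*Msr1* encodes the class A scavenger receptor that takes up modified lipoproteins (chromosome 8:39581685-39642673, minus strand). It was left out by the filter, with 27 counts in all of NT + Sham and 224 in all of NT + Stroke. Its levels were 0.101, 0.169 and 0.468 CPM in the lowest, median and highest NT + Sham mouse and 0.401, 2.0 and 3.35 CPM in NT + Stroke, and NT + Stroke mouse 4 alone lay within the sham range. When every gene with a count was fitted, *Msr1* had a log2 fold change of 2.95 (SE 0.474, edgeR adjusted *P* = 0.000142).

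*Fabp5* encodes a fatty acid binding protein of macrophages and glia (chromosome 3:10012548-10016607, plus strand). It was 86.2, 116 and 137 CPM in the lowest, median and highest NT + Sham mouse and 112, 141 and 180 CPM in NT + Stroke, with 3 of 6 stroke mice above every sham mouse. The log2 fold change of 0.32 did not pass the test (SE 0.122, edgeR adjusted *P* = 0.0645). It passed in 8 of 22 alternatives, whose adjusted *P* ran from 0.000501 to 0.238.

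On the FPKM scale, which allows levels of different genes to be set side by side, *Apoe* stood far above the rest in NT + Sham, at 1088 ± 144 FPKM (SD, n = 6). *Fabp5* (31.8 FPKM), *Nceh1* (20.5 FPKM) and *Abcg1* (11.6 FPKM) followed, each with a range clear of the next. *Soat1* (2.21 FPKM), *Plin2* (1.68 FPKM), *Abca1* (1.65 FPKM), *Apoc1* (1.26 FPKM) and *Ch25h* (0.437 FPKM) formed a run in which each range overlapped the next, and *Msr1* was lowest at 0.0365 FPKM. In NT + Stroke the first 4 places were unchanged, with *Apoe* at 2805 ± 683 FPKM, whereas *Apoc1* moved from the eighth place to the fifth, at 10.9 ± 5.92 FPKM. Ranges overlapped between neighbours from *Abcg1* down to *Soat1*, at 3.36 FPKM, in that group. The order of mean levels in HT + Stroke was the same as in NT + Stroke, with or without mice 1 and 6.

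In hypertensive mice, none of the 10 genes passed the test of HT + Stroke vs HT + Sham, but the labelled stroke group fell into 4 mice with raised levels and 2 mice at sham levels. Adjusted *P* (edgeR) ran from 0.0907 for *Fabp5* to 0.787 for *Nceh1*, and log2 fold changes from -0.04 for *Nceh1* to 2.61 for *Apoc1*. Of 16741 genes tested, 0.544% rose and 0.102% fell, so that few genes of any kind were called. No member was higher without overlap, against 0.579% of all genes. With DESeq2 4 of the 10 genes rose, against 688 of all 32442 genes tested, and with all 4 groups in 1 fit 7 rose, against 839 of 17608.

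*Abca1* was 17.9 and 18.3 CPM in HT + Stroke mice 1 and 6 and 45.2, 86.4, 54.1 and 39.7 CPM in mice 2 to 5. In HT + Sham it was 15.7 to 20.8 CPM in mice 1 to 5 and 36.65 CPM in mouse 6. The groups therefore overlapped through 2 low stroke mice, while mouse 6 of HT + Sham stood just under the lowest of the other stroke mice. *Plin2* was 5.87 and 6.45 CPM in HT + Stroke mice 1 and 6 and 13 to 39.9 CPM in the other 4, and HT + Sham mouse 6, at 13.89 CPM, lay above HT + Stroke mouse 5, so that 3 stroke mice were above every sham mouse. *Apoc1* was 1.08 and 1.15 CPM in HT + Stroke mice 1 and 6 and 3.82 to 18.6 CPM in the other 4.

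Without HT + Stroke mice 1 and 6, 9 of the 10 genes rose and none fell, against 5.8% and 1.05% of 17104 genes tested. The log2 fold changes were then 1.28 for *Apoe* (SE 0.208, edgeR adjusted *P* = 0.00301), 1.41 for *Abca1* (SE 0.277, adjusted *P* = 0.0133) and 1.64 for *Plin2* (SE 0.299, adjusted *P* = 0.00787). With HT + Sham mouse 6 left out as well, 9 genes rose, against 6.81% higher and 1.66% lower of 16956 genes tested, and *Msr1* had a log2 fold change of 3.44 (SE 0.524, adjusted *P* = 0.00094). Both counts of 9 hold *Ch25h* and *Msr1*, which did not pass the filter in HT + Sham vs NT + Sham. Their entry here thus rested on the HT + Stroke libraries where they are high. *Nceh1* did not pass in either fit, with adjusted *P* of 0.618 and 0.44. *Fabp5*, which had not passed in NT mice, rose by 0.56 on the log2 scale without HT + Stroke mice 1 and 6 (SE 0.118, edgeR adjusted *P* = 0.0101).

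The effect of stroke was not shown to differ between HT and NT mice for any of the 10 genes. In the interaction over all 24 libraries, log2 differences ran from -0.76 (SE 1.02) for *Msr1* to 0.15 (SE 0.0830) for *Nceh1*, and adjusted *P* (edgeR) from 0.535 to 0.992. For *Apoe* the interaction was -0.35 (SE 0.354) and for *Abca1* -0.59 (SE 0.431), so differences of the order of these errors could not be seen with 6 mice a group. The sign of these values rested on the libraries that stood apart. The median over the 10 genes was -0.28 with all mice, 0.02 without HT + Stroke mice 1 and 6 and 0.14 without HT + Sham mouse 6 as well, where *Apoe* stood at 0.11 (SE 0.248) and *Abca1* at 0.01 (SE 0.259), and no gene was called in any of these fits. Over 17608 genes, 0% were called by edgeR in either direction, 1836 had an unadjusted *P* under 0.05, and DESeq2 called 22.

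Angiotensin II after sham surgery gave no called difference. In HT + Sham vs NT + Sham, 8 of the 10 genes were tested (*Ch25h* and *Msr1* were left out by the filter) and none passed, with adjusted *P* (edgeR) of 0.472 to 0.993. Of 16581 genes, 0% were called in either direction, 1332 had an unadjusted *P* under 0.05 and DESeq2 called 0. *Plin2* was above every NT + Sham mouse in 5 of 6 HT + Sham mice, from 7.12 to 13.89 CPM, and *Nceh1* was below every NT + Sham mouse in 4 of 6. *Apoe* averaged 2986 ± 824 CPM here, against 2340 ± 308 CPM in NT + Sham, and *Abca1* 21.2 ± 7.84 CPM against 17.2 ± 1.53 CPM (SD, n = 6 each). Without mouse 6, *Abca1* in HT + Sham was 18.1 ± 2.24 CPM (n = 5).

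Angiotensin II after stroke also gave no called difference. In HT + Stroke vs NT + Stroke all 10 genes were tested, with log2 fold changes of -0.29 (*Abca1*, SE 0.368) to 0.07 (*Fabp5*, SE 0.145) and adjusted *P* (edgeR) of 0.714 to 0.997. Of 17008 genes, 0% were called in either direction, 1230 had an unadjusted *P* under 0.05 and DESeq2 called 0. The sign of 5 of the 10 values turned when HT + Stroke mice 1 and 6 were left out, such as *Plin2* from -0.19 (SE 0.447) to 0.23 (SE 0.294), so no direction is given. *Apoe* ran from 2839 to 9917 CPM in HT + Stroke, and from 5177 to 9917 CPM without mice 1 and 6.

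With both treatments against neither, 5 genes rose and 1 fell among the 9 tested in HT + Stroke vs NT + Sham, against 8.38% and 6.37% of 16749 genes. *Apoe* rose by 1.32 (SE 0.276, edgeR adjusted *P* = 0.0129), and its 6 HT + Stroke mice were all above the NT + Sham range. *Apoc1* (3.09, adjusted *P* = 0.0212), *Plin2* (1.72, adjusted *P* = 0.0257), *Abca1* (1.36, adjusted *P* = 0.0276) and *Abcg1* (0.38, adjusted *P* = 0.0338) also rose on the log2 scale, with 4 or 5 of 6 mice above every NT + Sham mouse. *Nceh1* fell by 0.20 (adjusted *P* = 0.0207), with all 6 mice below every NT + Sham mouse. Over all genes tested in this comparison, 2.35% were higher and 3.58% lower without overlap. Without HT + Stroke mice 1 and 6, 9 genes rose and 1 fell, against 12.2% and 8.49% of 17168 genes. *Ch25h* and *Msr1* are among the 9, and their entry likewise rested on the HT + Stroke libraries. The calls also rested on single libraries: 2 genes rose without NT + Sham mouse 1 or 3 or HT + Stroke mouse 2 or 4, 1 without NT + Sham mouse 4 or 5, and 3 without NT + Sham mouse 6. Of 22 alternatives *Abca1* was called in 12, *Plin2* in 11 and *Abcg1* in 9, and *Apoe* in 21. This comparison shares NT + Sham with NT + Stroke vs NT + Sham, and its values are given beside those and not as a separate replication of them. None of the 10 genes was called with the region scores as covariates.

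**Figure D3:**
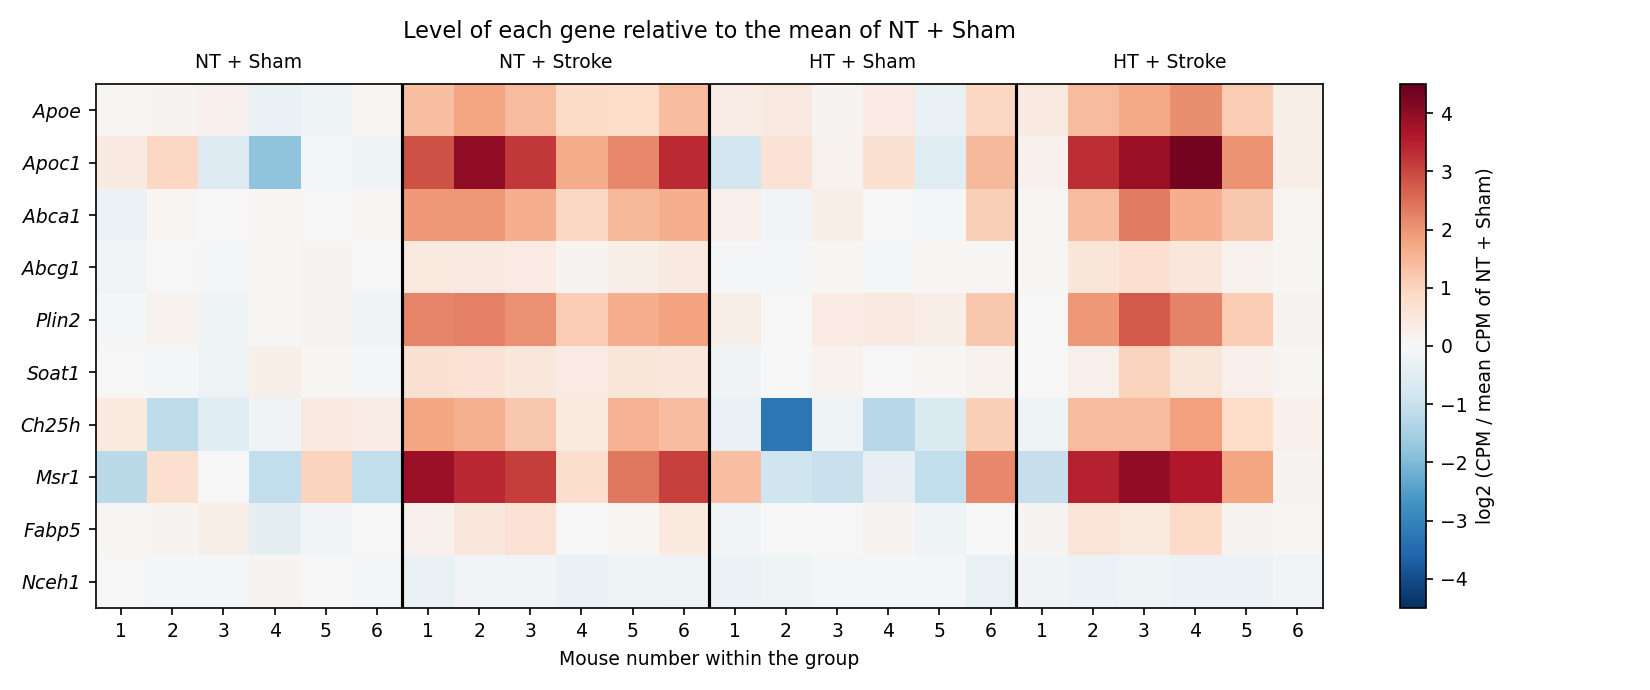
Level of each gene (vertical axis) in each of the 24 mice (horizontal axis, numbered within the group) as log2 of its CPM over the mean CPM of NT + Sham; red is higher and blue lower. The columns of HT + Stroke mice 1 and 6 are close to the sham columns, with 1 and 2 of the 10 genes above every NT + Sham mouse, against 7 to 9 genes in HT + Stroke mice 2 to 5.

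How the genes varied together was described by Pearson's r over the 24 libraries after group means were subtracted (log2 CPM, prior count of 2). These values are descriptions across libraries that also differ, within a group, in depth and in injury markers such as *Gfap*. *Abca1* and *Plin2* were the closest pair (r = 0.96), followed by *Apoe* with *Apoc1* (r = 0.91) and *Plin2* with *Msr1* (r = 0.90). Over the 21 libraries without the 3 that stood apart, these were 0.87, 0.80 and 0.76. *Nceh1* with *Msr1* gave -0.45 over all libraries and -0.10 over the 21, and *Fabp5* with *Soat1* 0.20 and -0.02.

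Among 14070 genes, those most like *Apoe* were the complement subunits *C1qc* (r = 0.980) and *C1qa* (r = 0.976) and the lipid receptor of microglia *Trem2* (r = 0.976). *Apoc1* was most like *Fcer1g* (r = 0.945), the shared Fc receptor subunit, *Ctsz*, a lysosomal cathepsin, and *Npc2*, which carries cholesterol out of lysosomes. *Abca1* was most like *Plin2*, then *Cp*, which encodes ceruloplasmin (r = 0.951), and *Plin2* was most like the macrophage pore protein gene *Mpeg1* (r = 0.974) and the cathepsin gene *Ctsl* (r = 0.973). *Abcg1* was most like *Ctsb* (r = 0.924), *Soat1* like the sphingosine phosphate lyase *Sgpl1* (r = 0.940), and *Msr1* like *Arhgap9* (r = 0.934) and the NADPH oxidase subunit *Cybb* (r = 0.931). *Fabp5* was most like *Vat1* (r = 0.862), and *Nceh1* like *Cap2* (r = 0.897) and *Lrrc4c* (r = 0.890), a synaptic adhesion gene of neurons. *Ch25h*, with the fewest counts of the tested genes, had the loosest best match, *Tec* (r = 0.799). Over the 21 libraries the closest gene was still *Fcer1g* for *Apoc1* (r = 0.901), *Sgpl1* for *Soat1* (r = 0.920) and *Arhgap9* for *Msr1* (r = 0.868). It became the ferritin gene *Ftl1* for *Apoe* (r = 0.962), *Ctsl* for *Abca1* (r = 0.894), *Mpeg1* for *Abcg1* (r = 0.911), *Creg1* for *Plin2* (r = 0.963), *Gypc* for *Ch25h* (r = 0.768), *Fcer1g* for *Fabp5* (r = 0.900) and *Tmem200a* for *Nceh1* (r = 0.901).

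Other genes of cholesterol handling were examined as lists of known function in NT + Stroke vs NT + Sham, where the median log2 fold change over all genes tested was -0.01, 14.4% rose and 11.5% fell. Of 12 tested genes of sterol efflux and lipoprotein particles, 8 rose and 1 fell (median 0.44). The lower gene was *Abcg4*, a transporter of neurons and astrocytes, at -0.17 (adjusted *P* = 0.0383). *Apod*, a lipocalin of glia, rose by 1.49 (SE 0.118, edgeR adjusted *P* = 5.01e-07) from 220 ± 31.0 to 618 ± 112 CPM. *Npc2*, the lysosomal cholesterol carrier, rose by 0.85, and *Pltp*, the phospholipid transfer protein gene, by 0.69. *Lpl*, lipoprotein lipase, rose by 1.89 (SE 0.376, edgeR adjusted *P* = 0.00382).

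Scavenger and lipoprotein receptors had 9 of 13 tested genes higher (median 1.07). *Cxcl16*, a membrane chemokine that binds oxidised lipoprotein, rose by 2.42, *Cd68*, a lysosomal glycoprotein of phagocytes, by 2.29 and the collectin *Colec12* by 1.04. Of the lipid droplet genes other than *Plin2*, 1 of 12 was higher, against 14.4% of all genes tested (*Plin3*, 0.66, SE 0.10, edgeR adjusted *P* = 7.54e-05) and none lower, and 2 were higher with DESeq2 and 3 with library size scaling only. The lipases and their cofactor gave 0.22 for *Lipe* (adjusted *P* = 0.0741) and 0.33 for *Abhd5* (adjusted *P* = 0.0813).

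Of the fatty acid binding proteins, 3 of 9 were tested. *Fabp4*, the form of adipocytes and macrophages, rose by 4.58 (SE 0.710, edgeR adjusted *P* = 0.000518) from 1 to 12 counts per library to 12 to 157, and it passed the filter through the stroke libraries where it is high, *Fabp7*, the form of radial glia and astrocytes, rose by 1.25, and *Fabp3*, the form of neurons and muscle, fell by 0.43. With the region scores as covariates none of the 3 was called.

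Oxysterol enzymes and receptors had 5 of 12 tested genes higher and none lower (median 0.25). *Gpr183*, the receptor for a dihydroxycholesterol made from the product of *Ch25h*, rose by 1.51, the sterol hydroxylase *Cyp27a1* by 0.79 and the LXR alpha gene *Nr1h3* by 0.70. *Cyp46a1*, which makes the oxysterol of neurons, had a log2 fold change of -0.13 (SE 0.0700, edgeR adjusted *P* = 0.211), and *Nr1h2*, the LXR beta gene, 0.08 (adjusted *P* = 0.467). A list drawn up as LXR targets other than the 10 genes had 5 of 10 higher and none lower (median 0.23). Whether each gene of the list responds to LXR in this tissue was not tested. Among the 5 were *Srebf1*, the regulator of fatty acid synthesis (0.70), the phospholipid enzyme *Lpcat3* (0.40) and the transporter *Abca9* (0.99).

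Sterol synthesis genes moved the other way, with 8 of 12 lower and none higher (median -0.35). *Hmgcs1* fell by 0.57 (SE 0.0630, edgeR adjusted *P* = 4.46e-06) and *Fdft1*, squalene synthase, by 0.44. The count of lower genes was 5 with library size scaling only and 4 with the region scores as covariates, and no gene of this list was called higher under either. In HT + Stroke vs HT + Sham no gene of the 7 lists passed with all mice. Without HT + Stroke mice 1 and 6, 6 of 12 genes of sterol efflux and 5 of 13 scavenger receptors rose, and 3 of 12 sterol synthesis genes fell, against 5.8% higher and 1.05% lower of all genes in that fit.

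**Figure D4:**
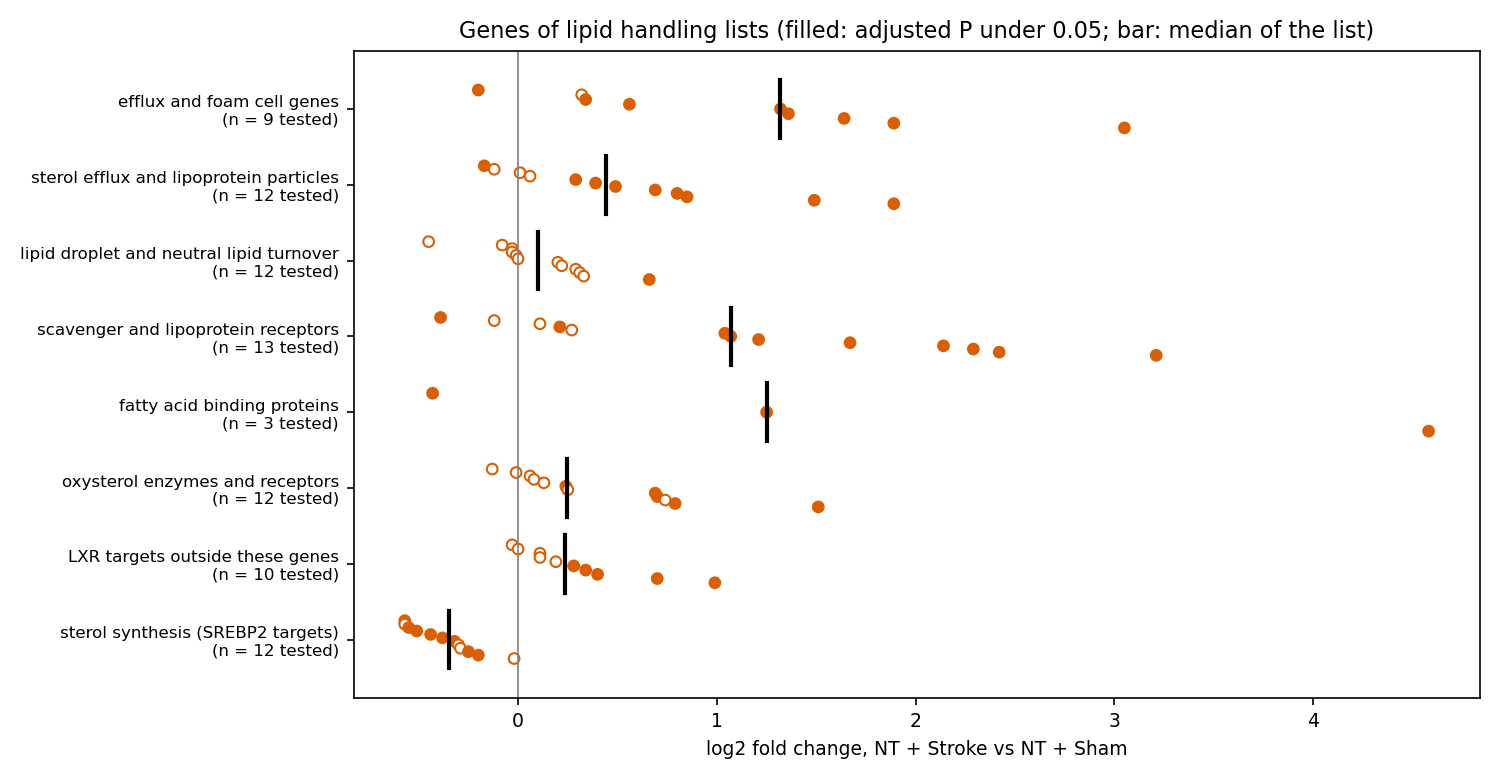
Log2 fold change in NT + Stroke vs NT + Sham (horizontal axis) of each tested gene of the 10 genes described here and of 7 lists of lipid handling genes; filled points have an edgeR adjusted *P* under 0.05 and bars are list medians. The medians of the scavenger receptors (1.07) and of sterol efflux (0.44) lie above 0 and that of sterol synthesis (-0.35) below it.

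Markers of several cell types that can express these genes were also higher in NT + Stroke than in NT + Sham. Of all genes tested there, 14.4% rose and 11.5% fell. The summed level of 10 border and infiltrating macrophage markers was 36.6 to 45.5 CPM in NT + Sham and 275 to 1233 CPM in NT + Stroke. *Lyz2*, also a gene of activated microglia, held 10.3 to 15.7 CPM of it in NT + Sham and 113 to 624 CPM in NT + Stroke. The sum is therefore not particular to macrophages. *Mrc1* rose by 1.07 on the log2 scale (edgeR adjusted *P* = 4.91e-05), and *Cd163* had 0.27 (adjusted *P* = 0.518). Of the 10 markers, 8 were higher. Only 7 of them were tested in HT + Sham vs NT + Sham, so the entry of the others rested on the stroke libraries. NT + Stroke mouse 4, the lowest of its group for 8 of the 10 genes described, also had the lowest macrophage sum. The macrophage sum was 61.6 to 1342 CPM in HT + Stroke and 35.1 to 333 CPM in HT + Sham, where mouse 6 was highest. The sum of 8 microglial markers was 231 to 275 CPM in NT + Sham and 338 to 413 CPM in NT + Stroke (6 of 8 higher), in which *Tmem119* had a log2 fold change of 0.33 (edgeR adjusted *P* = 0.0214) and *P2ry12* of 0.05 (adjusted *P* = 0.73). Meningeal fibroblast markers summed to 78.9 to 99.2 CPM and 238 to 776 CPM (7 of 8 higher), astrocyte markers to 2038 to 2376 CPM and 2614 to 3298 CPM (6 of 8 higher), and oligodendrocyte markers to 3639 to 5133 CPM and 4507 to 5876 CPM (5 of 8 higher). In HT + Stroke vs HT + Sham with all mice, 5 of 8 oligodendrocyte markers and 1 of 8 cortical markers were higher. Of all genes tested in that comparison, 0.544% rose. In HT mice the oligodendrocyte sum did not follow the 10 genes. The sum was 5732 and 5753 CPM in HT + Stroke mice 1 and 6, above every sham mouse. In HT + Sham mouse 6 it was 3891 CPM, the lowest of that group. In NT + Stroke vs NT + Sham, cortical markers were lower in 7 of 8, and neuronal markers in 4 of 8 with 1 higher, while *Nceh1* fell. The part of each cell type in the levels of the 10 genes was not tested.

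Tissue of neighbouring regions also varied between libraries. Summed striatal markers ran from 377 to 1645 CPM in NT + Sham and from 884 to 2770 CPM in HT + Stroke, and summed olfactory bulb markers from 210 to 398 CPM in NT + Sham and from 281 to 908 CPM in NT + Stroke. With both scores as covariates, *Apoe* (log2 fold change 1.36, edgeR adjusted *P* = 0.000217), *Apoc1* (2.89, adjusted *P* = 0.0115), *Abca1* (1.40, adjusted *P* = 0.00445), *Plin2* (1.78, adjusted *P* = 0.00116) and *Soat1* (0.58, adjusted *P* = 0.0155) remained higher in NT + Stroke vs NT + Sham, and *Fabp5* passed (0.40, adjusted *P* = 0.0185).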

How the data were processed

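The 4 groups of 6 libraries were compared. The authors deposited, after mapping to the Ensembl mouse genome, whole-number counts per gene, without normalization, and FPKM (counts per gene length and library size). The aligner and build are not given in the sources used here, and the submitters' processing notes name featureCounts 1.5.0-p3 and DESeq2 1.20.0. The log2 fold change and p-value columns as deposited by the authors hold their own tests and were not used, nor were 48 columns of normalized library values and 8 of group means. The 4 tables were joined by gene ID, and 48 comparisons of libraries between tables found 0 that differed. Total counts were 15922919 to 24865998 (median 18497215) per library.

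The tests used edgeR 4.0.16 under R 4.3.3 (TMM, filterByExpr with minimum count 10 and minimum total count 15, robust two-sided quasi-likelihood test, Benjamini-Hochberg over all genes tested, threshold 0.05), tested on simulated data. CPM used TMM library sizes over the 24 libraries. Alternatives were DESeq2 1.42.0, limma 3.58.1 on log2(FPKM + 1) and log2(FPKM + 0.1), other scalings and filters, all 4 groups in 1 fit, a replicate block and each library left out in turn. Leaving out HT + Stroke mice 1 and 6, or these and HT + Sham mouse 6, also for the correlations, and the covariates were chosen after the data were seen. The genes, lists and markers were chosen with earlier results of these data known. Named genes were the 10 genes, the 3 with the smallest *P* in NT + Stroke vs NT + Sham of each list, and the 3 most correlated with each gene, of which some are printed; results for certain genes of the lists are not reported here. *Apoc4*, *Lpl*, *Abcg4*, *Cyp46a1*, *Nr1h2*, *Gfap*, *Lyz2*, *Mrc1*, *Cd163*, *Tmem119*, *P2ry12* and *Gm26902* were named after their values were seen. Endothelial, choroid plexus and blood markers had 2 of 8, 2 of 5 and 1 of 6 tested genes higher in NT + Stroke vs NT + Sham and none lower. Of all genes tested there, 14.4% rose and 11.5% fell. In HT + Sham vs NT + Sham 3 choroid plexus markers were tested, so the entry of some of the 5 rested on the stroke libraries.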

Additional observations from a re-analysis of the deposited data

Results flagged for a closer look

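The 10 genes were examined in 4 groups, 40 sets of 6 mice, for a highest or lowest mouse whose gap to the next mouse was over 0.625 of the group's range, a limit that chance passes in about 1 in 20 sets. There were 3 such sets of the 40, near that rate. *Abca1* in HT + Sham mouse 6 was 36.65 CPM, with a gap of 0.756 of the range, and *Plin2* in the same mouse was 13.89 CPM, with a gap of 0.739. This mouse also had the highest *Gfap* (550 CPM) and *Lyz2* (164 CPM) of its group. *Abca1* in NT + Sham mouse 1 was 14.22 CPM, below 17.2 to 18.2 CPM in the other 5, with a gap of 0.744.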

How the results depend on the processing

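In NT + Stroke vs NT + Sham, 2426 genes rose and 1939 fell, and with library size scaling only 2987 rose and 1021 fell. The region scores as covariates left 828 called genes. The fall of *Nceh1*, the 1 lower gene of the 10, was lost under both, which left 0. In HT + Stroke vs HT + Sham, 108 genes were called, against 905 with DESeq2, 67 with library size only, 179 with all genes of at least 1 count, 61 and 71 with limma on log2(FPKM + 1) and log2(FPKM + 0.1), 1125 with all 4 groups in 1 fit, 46 with a replicate block, 1172 without HT + Stroke mice 1 and 6, 1437 without these and HT + Sham mouse 6, and 0 with the covariates. Of the 10 genes 0 were higher there, against 4 with DESeq2, 7 with all 4 groups, and 9 with either set of mice left out. Leaving out 1 library gave 9 (HT + Sham mouse 3 or HT + Stroke mouse 2) to 533 (HT + Stroke mouse 1) genes, and 0 to 3 of the 10 genes. In HT + Stroke vs NT + Sham, 2470 genes were called, against 770 with the block, 0 with the covariates and 1357 (without HT + Stroke mouse 2) to 2966 (without HT + Stroke mouse 1) with 1 library left out. Of the 10 genes 5 were higher, against 8 with DESeq2 or all 4 groups, 3 with all genes of at least 1 count, 2 with limma on log2(FPKM + 1), 1 with the block, 9 without HT + Stroke mice 1 and 6, 0 with the covariates, and 1 (without NT + Sham mouse 4) to 8 (without HT + Stroke mouse 1) with 1 library left out. The 1 lower gene became 0 with library size only, both limma fits, the block and the covariates, and 0 to 1 with 1 library left out. The interaction called 0 genes, and 22 with DESeq2. The causes were not tested. Same-numbered mice deviated together with r of -0.38 to 0.261, and at most 1 of 6 correlated best with its own number, so the numbers were not taken as pairs. Of 1410 values of the 10 genes under the alternatives, 1224 kept direction and call, 49 lost and 55 gained the call, 82 uncalled values changed sign and 0 called values did. Low counts limit *Msr1*, *Ch25h* and *Apoc1*, with 1 to 5 reads in the lowest sham library of each.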
